A study of Drosophila melanogaster with 26 samples.

Results

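The transcripts described here encode the 2 subunits of the *Drosophila* hypoxia-inducible factor (HIF) and the enzymes that tie its level to oxygen. The members are 4 genes, *sima*, *tgo*, *Hph* (also called *fatiga*) and *Vhl*, taken with every probe set that the array annotation assigns to them. They are represented by 5 of the 18769 probe sets tested (4 of 11982 genes with a probe set of their own). *Hph* has 2 probe sets and each of the others has 1. The platform annotation assigns both to *Hph*. The study lists one under the older locus name CG31543 and the other, without a gene name, under CG2676 or CR31541. The current RefSeq table gives all of these as earlier names of *Hph*. The probe sets are called CG31543 and CR31541 here. Which transcript the CR31541 probe set detects was not tested, so its assignment to *Hph* rests on the annotation. A probe set is a group of short oligonucleotides that together report the level of a transcript.

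RNA was taken from whole larvae in the late-L3 stage (the last larval instar) at the partial clear-gut stage, 10 to 4 h before pupariation. Pools of at least 10 animals were kept for 6 h at 25°C either in normoxia (N) or in 4% oxygen (hypoxia, H). The 26 arrays form 8 groups of genotype and oxygen, with 5 arrays of *w1118* in H and 3 of every other group. Control animals had *w1118* parents. The *sima* mutants are homozygous for Sima07607, a P-element insertion in the first intron of *sima*, and came from parents that carried this chromosome over the balancer TM3,tw-GFP. The *dERR* mutants are dERR1/dERR2, mutant for the estrogen-related receptor, a nuclear receptor that regulates larval glycolysis. The double-mutants are Sima07607,dERR1/Sima07607,dERR2. Both of these also came from parents with TM3,tw-GFP, whereas the balancer is not listed for the controls. The labels number the arrays as biological replicates, so p values measure the spread between pools of larvae.

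HIF is a heterodimer of an alpha subunit, encoded in flies by *sima* (dHIFα), and the constitutive beta subunit encoded by *tgo* (tango, the ARNT homologue). When oxygen is available, the prolyl hydroxylase Hph hydroxylates the alpha subunit, and Vhl, the substrate receptor of a cullin ubiquitin ligase, then directs it to the proteasome. In low oxygen the hydroxylase slows, the alpha subunit accumulates and the dimer switches on its targets. In mammals some of the hydroxylase genes are themselves HIF targets, so that the factor feeds back on its own sensor. The arrays measure transcripts only, and neither the stability nor the hydroxylation of dHIFα was measured.

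Values are log2 intensities after RMA (the robust multi-array average, which corrects background, normalizes arrays and summarizes the oligonucleotides of a probe set). A difference was called when it was at least 1.5-fold with an adjusted p under 0.01 in limma, a linear model fitted to all probe sets, with Benjamini-Hochberg adjustment over all 18769. Levels are compared between groups within a probe set and never between probe sets. Replicate spread was smallest in *w1118* in N, with a median SD over probe sets of 0.11, and largest in *w1118* in H, with 0.21. In *w1118* in H, mean differences between 2 arrays were 0.16 for replicates 2 and 3, 0.25 for replicates 4 and 5, and 0.35 to 0.45 for all other pairs. Of the marker lists for larval tissues, the muscle mean (8 of 10 genes matched) ranged from 9.05 to 9.59 in *w1118* in N and from 10.71 to 11.59 in *dERR* mutants in N. The testis mean (9 of 10 matched) ranged from 7.99 to 8.42 in *w1118* in N and from 5.92 to 8.34 in *w1118* in H.

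The *sima* transcript separated the genotypes by whether they carried the Sima07607 insertion and was not called H-regulated in any of them. In *w1118* animals it stood at 7.88, 7.63 and 7.91 in N and at 7.70, 7.70, 7.62, 8.36 and 7.94 in H. In *dERR* mutants it stood at 7.82, 7.72 and 7.9955 in N and at 7.95, 8.21 and 8.02 in H. All 14 of these arrays lie above every array with the insertion, and the *w1118* and *dERR* groups overlap.

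In *sima* mutants the probe set read 5.58, 5.55 and 5.69 in N and 5.35, 4.97 and 5.38 in H. In the double-mutants it read 6.15, 5.94 and 5.59 in N and 5.52, 5.50 and 5.61 in H. The highest of the 12 arrays with the insertion is therefore replicate 1 of the double-mutants in N. Since whole animals were profiled, fewer cells of a kind and less RNA per cell cannot be told apart here or in the results that follow.

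Against *w1118* in N, the *sima* transcript was lower by 4.59-fold in *sima* mutants (log2 difference -2.20, SE 0.17, adjusted p = 2.51e-08, limma) and by 3.77-fold in the double-mutants (-1.91, SE 0.17, adjusted p = 4.27e-07). In H it was lower by 6.19-fold in *sima* mutants (-2.63, SE 0.15) and by 4.98-fold in the double-mutants (-2.32, SE 0.15, adjusted p = 1.33e-09). The *dERR* mutants differed from *w1118* by 0.04 in N (95% confidence interval -0.31 to 0.39) and by 0.20 in H (-0.11 to 0.51), and neither difference was called. Directly against *dERR* mutants, the double-mutants were lower by -1.95 in N (adjusted p = 9.04e-07) and by -2.52 in H (adjusted p = 1.20e-08).

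The H-treatment shifted the *sima* transcript by 0.06 in *w1118* (SE 0.15, adjusted p = 0.825) and by 0.22 in *dERR* mutants (adjusted p = 0.611). With only replicates 1 to 3 of *w1118* in H, the shift in *w1118* was -0.14 (adjusted p = 0.686, limma), also not called. In the 2 genotypes with the insertion the shift was downward, at -0.38 in *sima* mutants (adjusted p = 0.211) and -0.35 in the double-mutants (adjusted p = 0.242). The *sima* mutant arrays of N and H do not overlap, but the change did not pass. The interaction, which is the difference between the hypoxic change of a mutant and that of *w1118*, was -0.43 in *sima* mutants (95% confidence interval -0.90 to 0.04) and was not called in any genotype.

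The other targeted gene, *ERR*, is reported by 1 probe set with a weak signal (linear intensities of 17.54 to 40.15 over the 26 arrays). It read 4.98, 4.93 and 4.75 in *w1118* in N and 4.38, 4.64 and 4.65 in *dERR* mutants in N, a difference of -0.33 that was not called (adjusted p = 0.14). In H the *dERR* mutants read 4.29, 4.13 and 4.62 against 5.15 to 5.33 in *w1118*, and this difference of -0.89 was called (adjusted p = 1.07e-04). The double-mutants read 4.99, 4.92 and 4.94 in N, where they overlap *w1118* and differ by 0.06 (adjusted p = 0.817), so the transcript was not lower there. They read 4.53, 5.22 and 4.70 in H, where replicate 2 falls within the *w1118* range, and their difference of -0.42 was not called (adjusted p = 0.0292). Where this probe set lies relative to the sequence changed by dERR1 and dERR2 is not given in the sources used here, so its level checks those labels only in part.

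**Figure D1:**
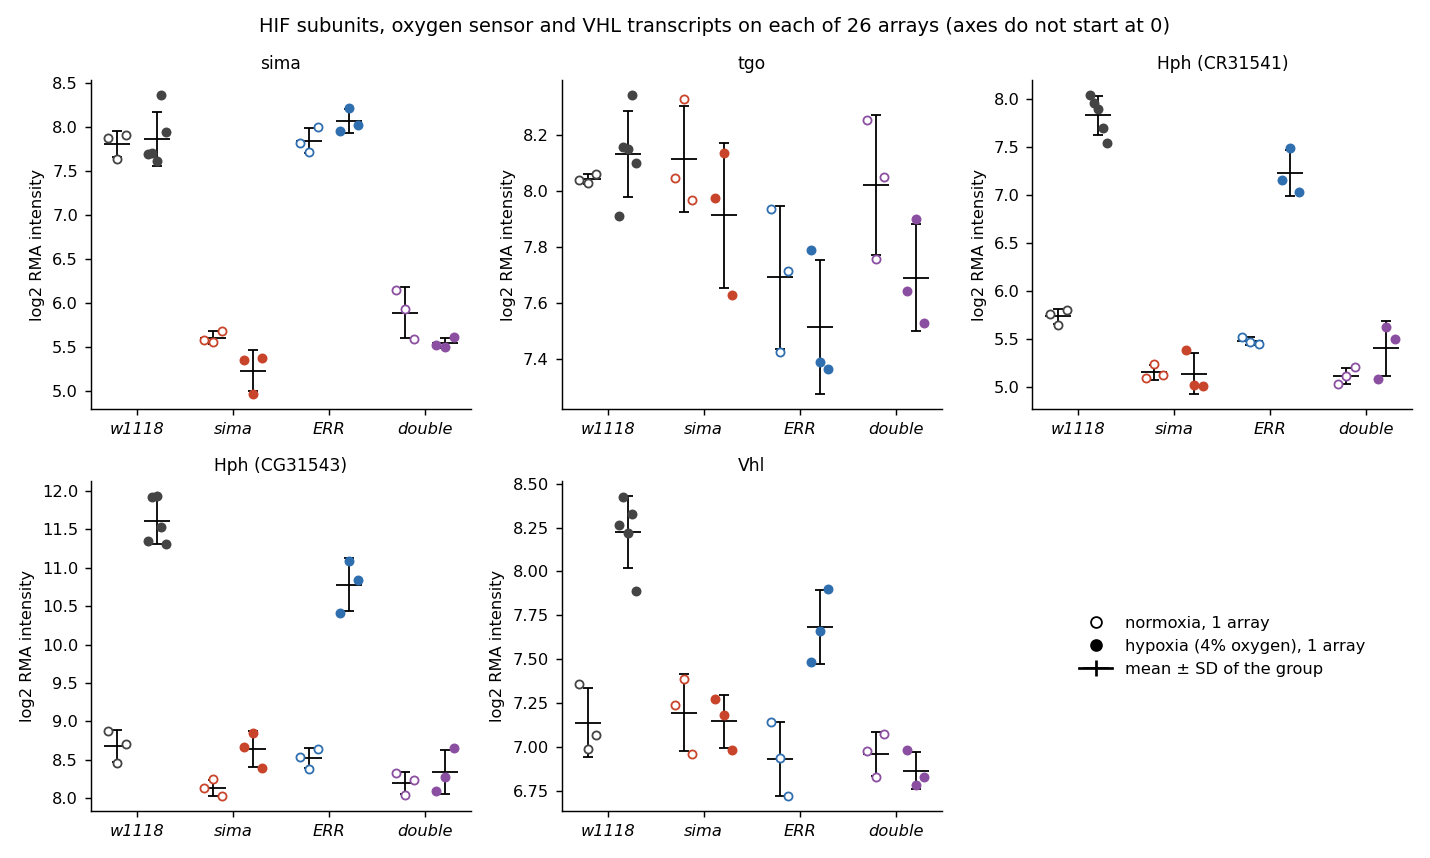
Log2 RMA intensity of the 5 probe sets of *sima*, *tgo*, *Hph* and *Vhl* on each array, by genotype on the horizontal axis, with open points for N, filled points for H and bars for the group mean and SD (n = 3, and n = 5 for *w1118* in H). The *sima* transcript is low in the *sima* and double columns, while both *Hph* panels show the *w1118* and *dERR* arrays of H above all others.

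The partner subunit gene *tgo* did not respond to H-treatment in any genotype at the threshold. In *w1118* animals it stood at 8.04, 8.03 and 8.06 in N and at 7.91, 8.15, 8.15, 8.34 and 8.10 in H, a shift of 0.09 (SE 0.15, adjusted p = 0.708). In *sima* mutants it stood at 8.04, 8.33 and 7.97 in N and at 7.97, 8.13 and 7.63 in H, a shift of -0.20 (adjusted p = 0.598). The groups overlap in both genotypes, so loss of the alpha subunit transcript was not accompanied by a called change in that of its partner (-0.22 against *w1118* in H, 95% confidence interval -0.52 to 0.09).

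The 3 lowest *tgo* values belonged to *dERR* mutants, which stood at 7.94, 7.43 and 7.71 in N and 7.79, 7.39 and 7.36 in H. The double-mutants stood at 8.25, 7.76 and 8.05 in N and at 7.64, 7.90 and 7.53 in H. Against *w1118* in H, *tgo* was lower by 1.53-fold in *dERR* mutants (-0.62, SE 0.15, adjusted p = 0.00606), which was called, and by -0.44 in the double-mutants (adjusted p = 0.0446), which was not. Neither mutant overlaps *w1118* in H.

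The call for *tgo* in *dERR* mutants sits close to the threshold. It was lost without replicate 2 or 3 of *dERR* in H (-0.55 and -0.54) and without replicate 2, 3 or 4 of *w1118* in H (-0.61, -0.61 and -0.56). It was also lost when each array was centred on its median (-0.64, adjusted p = 0.0159), with only replicates 1 to 3 of *w1118* in H (-0.56, adjusted p = 0.026) and with the closer pairs of that group averaged (-0.58, adjusted p = 0.0337). In N the corresponding difference was -0.35 and was not called (adjusted p = 0.173), although the arrays did not overlap.

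The muscle markers ran against *tgo* from array to array, with r = -0.83 over the 26 arrays, and the neuronal markers ran with it, with r = 0.64. Midgut markers (5 of 8 matched) also ran against *tgo*, with r = -0.50. These arrays share groups and tissue makeup, and the part of the tissue lists in the *tgo* values was not tested. Muscle means were 10.61 to 11.12 in *dERR* mutants in H and 9.01 to 10.69 in *w1118* in H. In the latter group replicate 1 had both the highest muscle mean and the lowest *tgo*. For *Hph* and *Vhl* the same correlation with muscle lay between -0.27 and -0.11. Midgut means did not overlap, at 12.07 to 12.40 in *dERR* mutants in H and 11.10 to 11.82 in *w1118* in H. In *sima* mutants in H, where *tgo* was not called lower, they were 11.90 to 12.10 and did not overlap *w1118* in H either. In the double-mutants in H they were 11.29 to 11.85 and did overlap it.

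The oxygen sensor *Hph* rose more than 4-fold with H-treatment in *w1118* animals on both of its probe sets. On its CG31543 probe set *w1118* animals stood at 8.87, 8.46 and 8.71 in N and at 11.35, 11.92, 11.93, 11.53 and 11.31 in H. On its CR31541 probe set they stood at 5.76, 5.65 and 5.80 in N and at 8.04, 7.96, 7.89, 7.70 and 7.54 in H. All 5 H arrays lie far above the 3 N arrays on either probe set, and replicate 5 is the lowest of them on both.

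The rise in *w1118* was 7.61-fold on CG31543 (log2 change 2.93, SE 0.17, adjusted p = 1.34e-09) and 4.25-fold on CR31541 (2.09, SE 0.13, adjusted p = 1.52e-09). With *Vhl*, described below, 3 of the 5 probe sets were called in this comparison, where 5.15% of all probe sets were called in either direction. Taking the closer pairs of *w1118* arrays in H (2 with 3, 4 with 5) as 1 array each gave 2.89 and 2.12, and using only replicates 1 to 3 gave 3.05 and 2.23, all called. By signed change, CG31543 ranked 20 of 18769. 

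In *dERR* mutants both *Hph* probe sets also rose. On CG31543 these animals stood at 8.53, 8.38 and 8.64 in N and at 10.41, 11.09 and 10.84 in H, a change of 2.26 (SE 0.19, adjusted p = 1.03e-06). On CR31541 they stood at 5.52, 5.47 and 5.45 in N and at 7.16, 7.49 and 7.03 in H, or 1.75 higher (SE 0.15, adjusted p = 1.03e-06). These were the 2 members called in this genotype, where 0.389% of probe sets were called, and they ranked 17 and 31 among all probe sets by signed change. With only the 6 *dERR* arrays in the fit, both missed the threshold (adjusted p = 0.0232), as did every other probe set.

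In *sima* mutants *Hph* was not called H-regulated. On CR31541 they stood at 5.09, 5.24 and 5.13 in N and at 5.39, 5.03 and 5.01 in H, a change of -0.01 (95% confidence interval -0.32 to 0.29). On CG31543 they stood at 8.13, 8.25 and 8.03 in N and at 8.67, 8.85 and 8.39 in H. All 3 H arrays of this second probe set lie above the N arrays, by a mean of 0.50 (SE 0.19, adjusted p = 0.125), which did not pass. Neither change was called, and the changes on the 2 probe sets were not tested against each other. Their 95% confidence intervals overlap, with 0.11 to 0.90 on CG31543. The CR31541 signal was weak in these mutants, at linear intensities of 32.21 to 41.92 against array medians of 38.36 to 43.03. In this genotype 3.6% of all probe sets were called and 0 of the 5 members.

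In the double-mutants the change was smaller than in *w1118* on both probe sets and was not called. On CG31543 they stood at 8.33, 8.04 and 8.23 in N and at 8.09, 8.28 and 8.65 in H, a change of 0.14 (adjusted p = 0.807). On CR31541 they stood at 5.04, 5.11 and 5.21 in N and at 5.08, 5.63 and 5.50 in H, a change of 0.29 (adjusted p = 0.281). N and H arrays overlap on both. Among all probe sets 4.72% were called in this genotype, again with 0 of the 5 members.

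**Figure D2:**
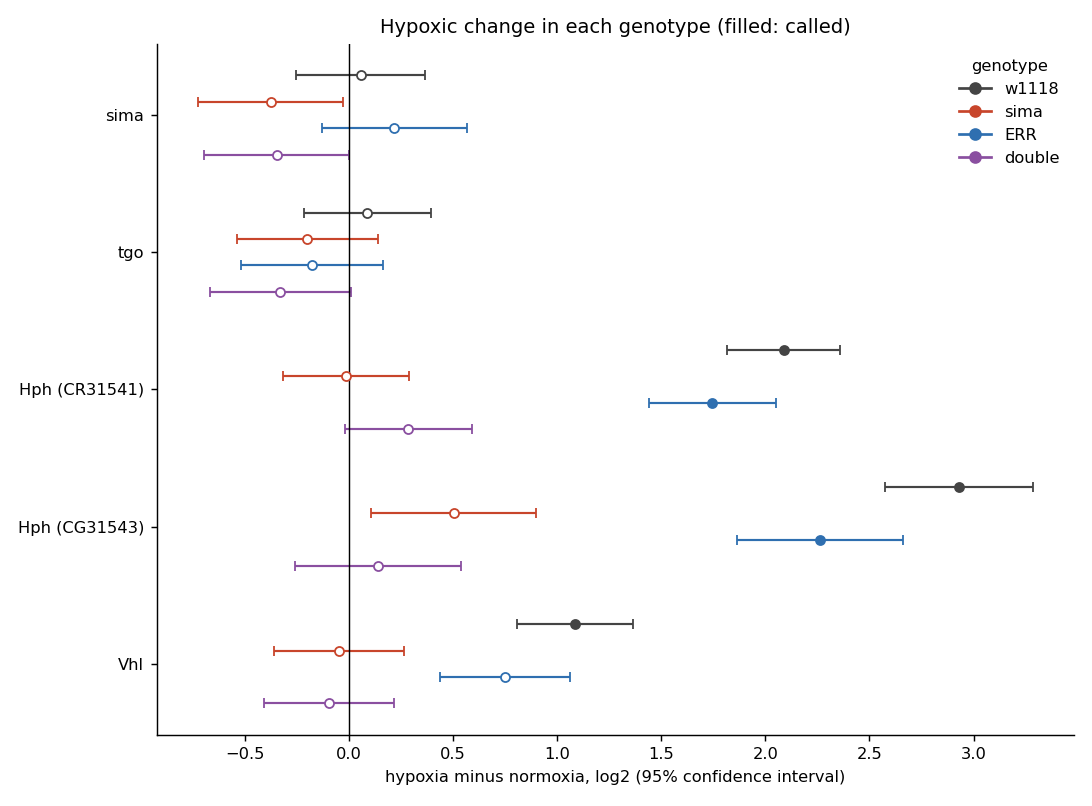
Hypoxic change (H minus N, log2) of each probe set in the 4 genotypes, with 95% confidence intervals from limma, filled where the change was called. *Hph* changed by 2.93 and 2.09 in *w1118* and by 2.26 and 1.75 in *dERR* mutants, while no point of *sima* or *tgo* is filled.

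The interactions test whether the hypoxic change of *Hph* itself differed from that of *w1118*. In *sima* mutants it was smaller by -2.43 on CG31543 (SE 0.26, adjusted p = 1.53e-05) and by -2.10 on CR31541 (SE 0.20, adjusted p = 6.10e-06). In the double-mutants it was smaller by -2.79 (adjusted p = 4.41e-06) and by -1.80 (adjusted p = 2.48e-05). Including *Vhl*, 3 of the 5 members were called in each of these interactions, against 0.314% of all probe sets for *sima* and 0.48% for the double-mutants. None of these 4 *Hph* calls was lost when any single array was left out.

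For *dERR* mutants the interaction was -0.67 on CG31543 (95% confidence interval -1.20 to -0.13, adjusted p = 0.353) and -0.34 on CR31541 (-0.75 to 0.06, adjusted p = 0.649). Neither was called, and 0 of the 5 members were called in this interaction, with 0.107% of all probe sets. The interval on the first probe set leaves out 0 and that on the second does not, so a smaller rise in *dERR* mutants was not established by the interaction after adjustment. The change in the double-mutants was smaller than that in *dERR* mutants by -2.12 on CG31543 (adjusted p = 1.02e-04) and by -1.46 on CR31541 (adjusted p = 3.19e-04). These 2 members were called there, against 0.794% of probe sets.

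Between the double-mutants and *sima* mutants, the change of *Hph* differed by -0.36 on CG31543 (95% confidence interval -0.92 to 0.20) and by 0.30 on CR31541 (-0.13 to 0.73). The 2 probe sets point in opposite directions and neither was called. In that interaction 0.016% of all probe sets and 0 of the 5 members were called.

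Measured directly in H, *Hph* was lower than in *w1118* in every mutant. In *sima* mutants it was 7.84-fold lower on CG31543 (-2.97, SE 0.17, adjusted p = 1.88e-10) and 6.44-fold lower on CR31541 (-2.69, SE 0.13, adjusted p = 1.87e-11). In the double-mutants it was 9.63-fold lower (-3.27, adjusted p = 5.79e-11) and 5.37-fold lower (-2.42, adjusted p = 7.01e-11). With *sima* and *Vhl*, 4 of the 5 members were called in each of these comparisons, against 4.56% and 6.05% of all probe sets.

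In *dERR* mutants the deficit in H was 1.78-fold on CG31543 (-0.83, SE 0.17, adjusted p = 0.00234) and 1.52-fold on CR31541 (-0.60, SE 0.13, adjusted p = 0.00332). Both were called, and no *dERR* array reaches the lowest *w1118* array on either probe set. With *tgo*, 3 of the 5 members were called, against 6.16% of all probe sets. These calls rest on few arrays. That on CG31543 was lost without replicate 1 or 3 of *dERR* in H (-0.64 and -0.86). That on CR31541 was lost without replicate 1 or 3 of *dERR* in H (-0.57 and -0.50) and, by falling just short of 1.5-fold, without replicate 1 or 2 of *w1118* in H (-0.55 and -0.57).

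Before any H-treatment, *Hph* was also lower where *sima* was disrupted, without passing the threshold. In N the *sima* mutants differed from *w1118* by -0.58 on CR31541 (adjusted p = 0.0271) and by -0.54 on CG31543 (adjusted p = 0.108). The double-mutants differed by -0.62 (adjusted p = 0.0249) and by -0.48 (adjusted p = 0.175). On both probe sets all 6 N arrays with the Sima07607 insertion lie below all 3 N arrays of *w1118*, and below the 3 of *dERR* mutants. In N the only member called was *sima* itself, in *sima* mutants (1.47% of all probe sets) and in the double-mutants (0.895%), and 0 of the 5 were called in *dERR* mutants (2.29%).

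Ordered by mean level, both *Hph* probe sets put *w1118* in H first and *dERR* in H second, and no array of either group overlaps the next. Next came *w1118* in N, which on CR31541 stands clear of the remaining 5 groups. On CG31543 it overlaps *sima* in H, with means of 8.68 and 8.64. Below that the groups overlap their neighbours on both probe sets.

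**Figure D3:**
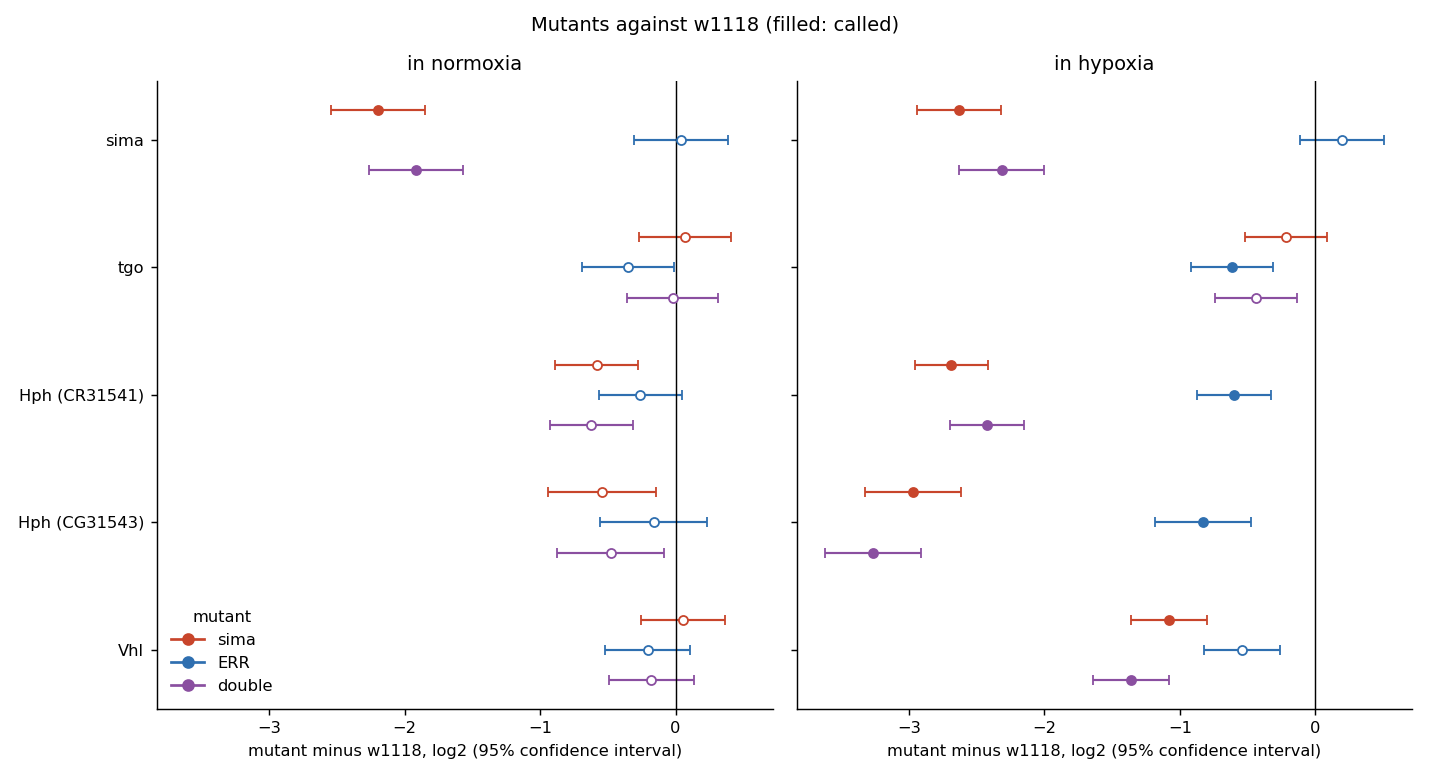
Difference of each mutant from *w1118* (log2, 95% confidence intervals from limma) in N and in H, filled where called. In N only the *sima* transcript is filled, in *sima* mutants (-2.20) and the double-mutants (-1.91). In H both *Hph* probe sets are filled in all 3 mutants, at -0.60 to -3.27.

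*Vhl*, which encodes the substrate receptor that binds hydroxylated dHIFα, followed the pattern of *Hph* at a smaller size. In *w1118* animals it stood at 7.36, 6.99 and 7.07 in N and at 8.27, 8.42, 8.22, 8.33 and 7.89 in H. The groups do not overlap, and replicate 5 was the lowest in H, as for *Hph*. The rise was 1.09 (SE 0.13, adjusted p = 1.07e-05), or 2.12-fold. It was 1.09 with the closer pairs averaged and 1.16 with only replicates 1 to 3 of *w1118* in H, both called.

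In *sima* mutants *Vhl* stood at 7.24, 7.39 and 6.96 in N and at 7.27, 7.18 and 6.98 in H, which differ by -0.05 (adjusted p = 0.906). In the double-mutants it stood at 6.98, 6.83 and 7.08 in N and at 6.98, 6.78 and 6.83 in H, a change of -0.09 (adjusted p = 0.841). N and H overlap in both genotypes. The change was smaller than that of *w1118* by -1.14 in *sima* mutants (SE 0.20, adjusted p = 0.00557) and by -1.18 in the double-mutants (SE 0.20, adjusted p = 0.00298).

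Both of these *Vhl* interactions depended on single arrays. That of *sima* mutants was lost in 9 of 26 fits that each left out 1 array, namely replicate 2 or 3 of *w1118* in N, replicate 1 or 2 of *sima* in N, replicate 2, 3 or 4 of *w1118* in H, or replicate 2 or 3 of *sima* in H. Its value in the 26 fits ran from -1.25 to -1.04 and could move only in fits without an array of the groups compared. That of the double-mutants was lost in 6 of 26, without replicate 2 or 3 of *w1118* in N, 1 or 3 of the double-mutants in N, or 2 or 3 of the double-mutants in H, and ran from -1.29 to -1.10. The direct differences in H were firmer, at -1.08 in *sima* mutants (adjusted p = 1.34e-05) and -1.36 in the double-mutants (adjusted p = 6.30e-07), and were called in every one of these fits.

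In *dERR* mutants *Vhl* stood at 7.14, 6.93 and 6.72 in N and at 7.48, 7.66 and 7.90 in H. All 3 H arrays are above the N arrays, and the change of 0.75 (SE 0.15, 1.68-fold) just missed the threshold at an adjusted p of 0.012. It passed without replicate 1 of *dERR* in N (0.85), without replicate 1 of *dERR* in H (0.85), and without replicate 5 of *w1118* in H (0.75, adjusted p = 0.00719). Against *w1118* in H, *Vhl* was lower by -0.54 (SE 0.13, adjusted p = 0.00806), but at 1.46-fold this was not called. Here replicate 3 of *dERR* (7.90) overlaps replicate 5 of *w1118* (7.89). Leaving either one out took the difference past the threshold (-0.65 and -0.63). The interaction was -0.34 (95% confidence interval -0.76 to 0.08, adjusted p = 0.671), so no difference between the *Vhl* rise in *dERR* mutants and in *w1118* was established.

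In H the double-mutants were lower than *dERR* mutants for *Vhl* (-0.82, adjusted p = 0.00193) and for *Hph*, by -2.44 on CG31543 (adjusted p = 8.69e-08) and -1.82 on CR31541 (adjusted p = 1.07e-07). With the *sima* transcript, 4 of the 5 members were called in that comparison, against 1.94% of all probe sets. The *Vhl* call was lost without replicate 3 of *dERR* in H (-0.71) and without replicate 2 of the double-mutants in H (-0.78). In N the *sima* transcript was the 1 member called (0.245% of all probe sets). Between the double-mutants and *sima* mutants 0 of the 5 members were called, in N (1.01% of all probe sets) or in H (1.04%).

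Across the 26 arrays the 2 *Hph* probe sets moved together (r = 0.98), and *Vhl* moved with them (r = 0.93 with CG31543 and 0.90 with CR31541). The *sima* transcript was less alike to *Hph* (r = 0.65 and 0.71) and to *Vhl* (r = 0.53), and *tgo* stayed between -0.09 and 0.28 with the other probe sets. The points share genotype and treatment, and the 8 arrays of *w1118* and *dERR* mutants in H stand apart from the remaining 18, so that r between *Hph* and *Vhl* describes mainly that gap. The arrays of *w1118* and of *dERR* mutants in N have high *sima* and low *Hph*, which is where those 2 transcripts part.

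**Figure D4:**
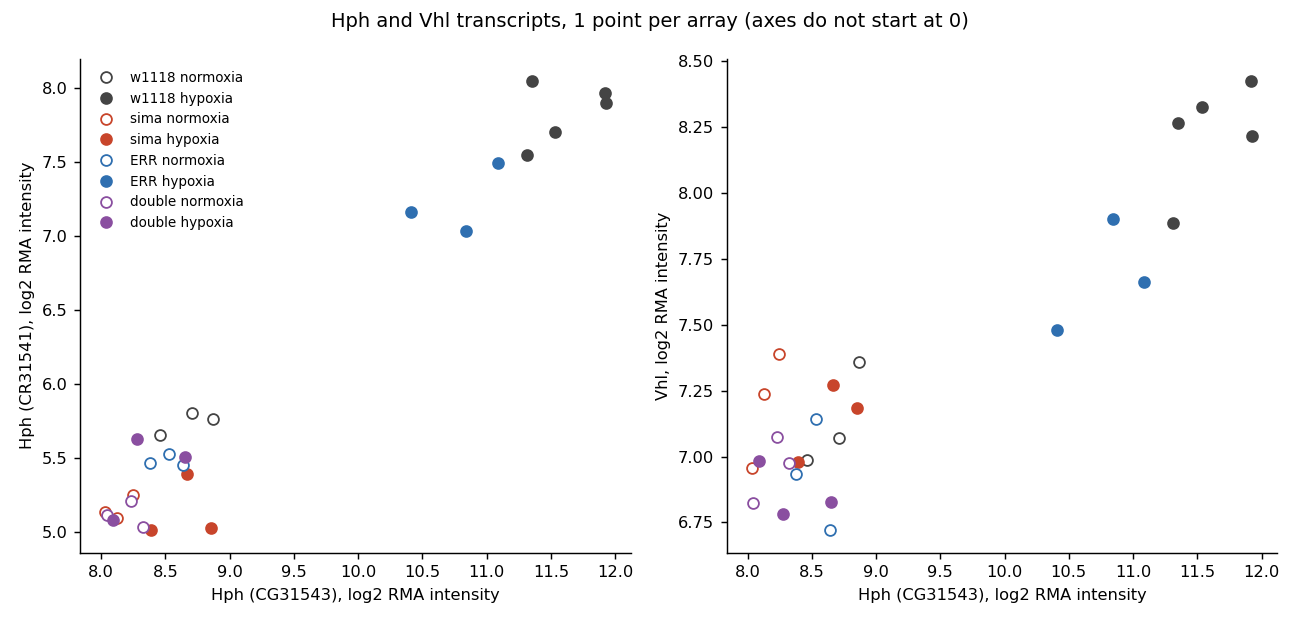
Each point is 1 of the 26 arrays, with the log2 intensity of *Hph* CG31543 on the horizontal axis and that of *Hph* CR31541 (left) or *Vhl* (right) on the vertical axis, coloured by genotype and filled for H. The 5 arrays of *w1118* in H and the 3 of *dERR* mutants in H stand apart at upper right, and the other 18 lie together at lower left.

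Trachea is a tissue in which the HIF targets act, and its marker list (5 of 6 genes matched) moved to a small extent. Its mean was 7.85 to 7.90 in *w1118* in N and 8.09 to 8.47 in *w1118* in H, which do not overlap. It ran from 8.13 to 8.28 in the double-mutants in H, where *Hph* was low, and from 7.75 to 8.21 in *dERR* mutants in H, where *Hph* was high. Its correlation with the *Hph* probe sets was 0.32 over the 26 arrays. Hemocyte markers (6 of 6 matched) ran from 7.95 to 8.07 in *w1118* in N and from 8.08 to 8.51 in H, which do not overlap. In *dERR* mutants they ran from 7.99 to 8.42 in N and from 8.25 to 8.75 in H. Their correlation was 0.41 with *Hph* CG31543, 0.39 with *Hph* CR31541 and 0.46 with *Vhl*. In *sima* mutants in H, where *Hph* was low, they ran from 7.99 to 8.51. The part of these lists in the *Hph* and *Vhl* values was not tested.

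Among the 3 established *sima* targets matched here, the FGF ligand gene *bnl* (branchless), which guides growing tracheal branches, rose most. It stood at 5.43 ± 0.14 (SD, n = 3) in *w1118* in N and 8.86 ± 0.28 (SD, n = 5) in H, which gives a rise of 3.43 (SE 0.24, adjusted p = 3.91e-09). In *dERR* mutants it rose as well (2.404, adjusted p = 3.58e-05), and its interaction with *w1118* was called in *sima* mutants (-3.06, adjusted p = 4.63e-05) and the double-mutants (-2.62, adjusted p = 4.00e-04). *scyl*, the REDD homologue that restrains TOR signalling, rose by 0.70 in *w1118* (adjusted p = 0.0043). Its interactions were not called, at -0.55 in *sima* mutants (adjusted p = 0.326) and -0.69 in the double-mutants (adjusted p = 0.191). Measured directly in H, *scyl* was called lower than in *w1118* in *sima* mutants (-0.73, adjusted p = 0.00386) and *dERR* mutants (-0.72, adjusted p = 0.00344). It was also called lower in the double-mutants (-0.83, adjusted p = 0.00114). The list had 3 of 5 genes matched here, of which 2 rose and 0 fell in *w1118*, where 5.15% of all probe sets were called. The remaining gene, the FGF receptor gene *btl*, shifted by 0.22 (adjusted p = 0.477). The median of the 3 was 0.70, against 0.06 over all probe sets. The lactate dehydrogenase gene *ImpL3* was listed but not matched. The paper, which classed it as HIF-independent at this stage, reports a larger rise for it in *w1118* than for *bnl*.

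The ligase partners Cullin-2, Elongin B, Roc1a and Roc1b (4 of 5 listed genes matched) had 0 called changes in any of the 19 comparisons. In *w1118* they changed by 0.11 (*Cul2*), -0.13 (*EloB*), -0.19 (*Roc1a*) and -0.72 (*Roc1b*), with adjusted p values from 0.142 to 0.552 and a median of -0.16. With 5.15% of all probe sets called in *w1118*, 0 of 4 is near that share.

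Of the other bHLH-PAS partners of Tango, *ss* (spineless, the aryl hydrocarbon receptor homologue) and *dysf* (dysfusion) were matched, 2 of 4 listed. Neither was called H-regulated in any genotype, with changes between -0.27 and 0.18. Like *tgo*, *ss* was lower than in *w1118* in H in *dERR* mutants (-0.68, adjusted p = 0.00344), and it was lower in the double-mutants (-0.84, adjusted p = 6.16e-04). The *ss* signal was weak, with means in H of 4.25 in *w1118*, 3.56 in *dERR* mutants and 3.41 in the double-mutants. Of the regulators of dHIFα, 3 of 7 were matched and 0 were called H-regulated in any genotype. That is near the shares over all probe sets, 5.15% in *w1118*, 3.6% in *sima*, 0.389% in *dERR* and 4.72% in double-mutants. In H the coactivator gene *nej* (CBP) was lower in *dERR* mutants (-0.98, adjusted p = 1.07e-04) and in the double-mutants (-0.85, adjusted p = 3.18e-04), and the kinase gene *S6k* was lower in *dERR* mutants (-0.89, adjusted p = 4.30e-04). Muscle means were 10.61 to 11.12 in *dERR* mutants in H and 9.77 to 11.02 in double-mutants in H, against 9.01 to 10.69 in *w1118* in H, and their part in these differences was not tested.

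*Hph* belongs to a wider group of 2-oxoglutarate-dependent prolyl hydroxylases, and 8 of 9 listed collagen prolyl 4-hydroxylases were matched. In *w1118* 1 of the 8 rose and 0 fell, with a median of 0.19, where 5.15% of all probe sets were called. This was *PH4alphaEFB*, the broadly expressed alpha subunit of collagen hydroxylase, at 8.60 ± 0.08 (SD, n = 3) in N and 10.21 ± 0.21 (SD, n = 5) in H, which gives a rise of 1.61 (SE 0.19, adjusted p = 5.13e-06). Without *sima* its means were 8.41 in N and 7.71 in H, a change of -0.70 that did not pass (adjusted p = 0.0426), and in *dERR* mutants it changed by 0.79 (adjusted p = 0.0559). Its interaction with *w1118* was called in *sima* mutants (-2.31, adjusted p = 6.29e-05) and the double-mutants (-2.33, adjusted p = 8.32e-05).

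2 further collagen hydroxylases were lower in H without *sima*. With *PH4alphaEFB*, 3 of the 8 were called lower than in *w1118* in H in *sima* mutants, and 3 in the double-mutants. Among all probe sets 4.56% and 6.05% were called in these comparisons, in either direction. *PH4alphaMP* was lower than in *w1118* by -1.57 in *sima* mutants (adjusted p = 2.11e-04) and by -1.12 in the double-mutants (adjusted p = 0.00385). It was already lower in N by -1.03 in both, without passing (adjusted p = 0.0419 and 0.0517), and its interactions were not called (-0.54 and -0.09). It was also the 1 list member that fell with H-treatment in *sima* mutants (-1.18, adjusted p = 0.00884), where 3.6% of all probe sets were called. *PH4alphaPV* was lower by -1.56 (adjusted p = 7.58e-04) and -1.33 (adjusted p = 0.00252), and its rise of 1.08 in *w1118* just missed the threshold (adjusted p = 0.0116). Its interactions were -1.68 in *sima* mutants (adjusted p = 0.0736) and -1.31 in the double-mutants (adjusted p = 0.161), not called. *PH4alphaSG2*, named for the salivary gland, was higher in *dERR* mutants than in *w1118* in N (1.61, adjusted p = 0.00629). In that comparison 2.29% of all probe sets were called.

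Genes whose levels ran most like each member were listed by Pearson r over the 26 arrays, among 13642 probe sets of a single gene, as a description. For *Hph* CG31543 these were *Dph1* (0.97), *CG14005* (0.96), *bnl* (0.96), *larp* (0.95) and *CG8010* (0.95). For CR31541 they were *Dph1* (0.97), *Fpps* (0.96), *CG14005* (0.94), *bnl* (0.94) and *CG8010* (0.93). The lists share 4 of 5 genes. The *Hph* probe sets themselves ran together over the 26 arrays (r = 0.98), which makes such sharing likely. The sharing therefore does not test whether CR31541 reports *Hph*. *Dph1* is named for a diphthamide synthesis enzyme of yeast, *larp* encodes an RNA-binding protein, and *Fpps* encodes farnesyl pyrophosphate synthase.

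For *Vhl* the list was *CG14005* (0.95), *larp* (0.91), *bnl* (0.91), *CG31706* (0.90) and *PheRS-m* (0.89), the mitochondrial phenylalanyl-tRNA synthetase. Changes in *w1118* among the 8 genes named for *Hph* and *Vhl* ran from 0.61 (*PheRS-m*) to 3.47 (*Dph1*). All 8 had a smaller change in *dERR* mutants, from 0.29 to 2.42, and a smaller one again in *sima* mutants, from -0.13 to 0.44, an order that likeness to *Hph* and *Vhl* itself selects for.

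**Figure D5:**
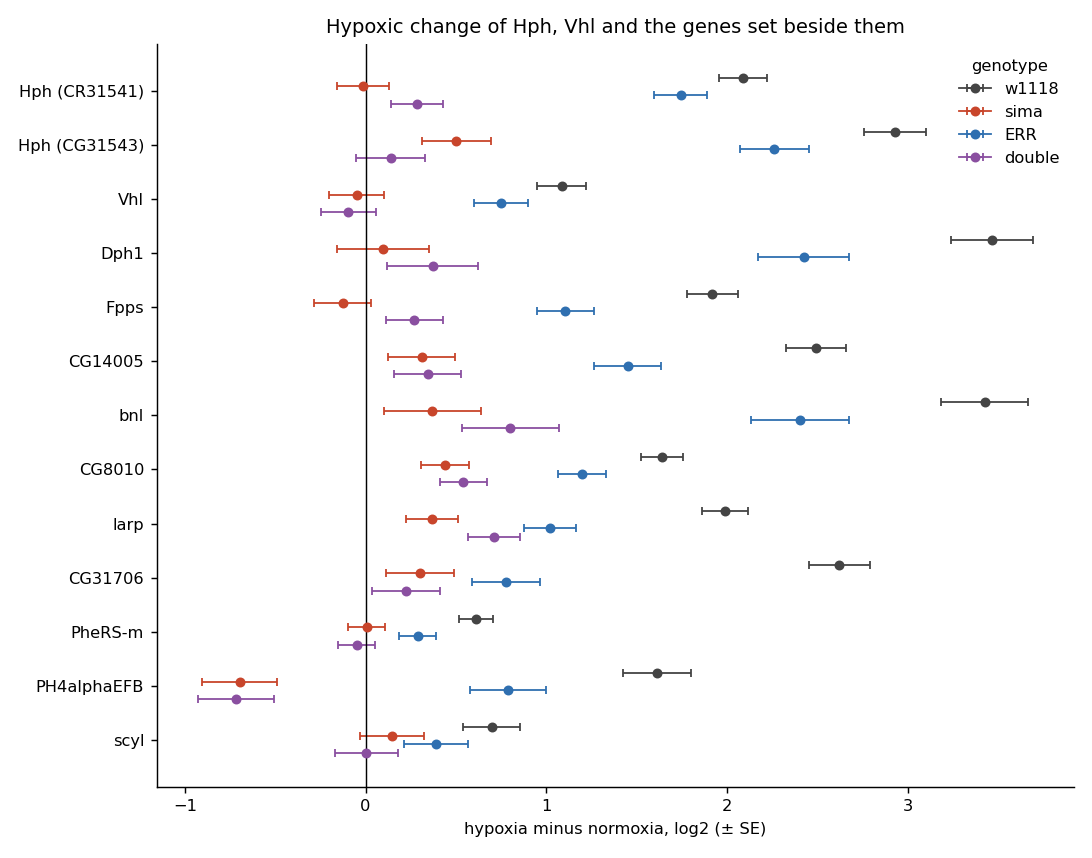
Hypoxic change (H minus N, log2, with SE) in the 4 genotypes for *Hph*, *Vhl*, the 8 genes most like them across the 26 arrays, and 2 other pathway genes called in *w1118*. The *w1118* points lie furthest right in every line, from 0.61 for *PheRS-m* to 3.47 for *Dph1*, and *PH4alphaEFB* is the 1 line with *sima* and double points at -0.70 and -0.71.

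The genes most like *sima* were *Rift* (0.96), *CG34330* (0.90), *htt* (0.87), *CG11470* (0.85) and *PH4alphaMP* (0.84). They differed between *sima* mutants and *w1118* in N by -0.40 (*htt*) to -4.14 (*Rift*), and by -0.20 (*Rift*), -0.19 (*CG34330*), 0.36 (*PH4alphaMP*), 0.43 (*htt*) and 0.68 (*CG11470*) in *dERR* mutants. *CG34330* also changed with H by 2.36 in *w1118* and 2.27 in *dERR* mutants, which *sima* itself did not. Since the *sima* chromosome came from another stock than *w1118*, variation carried with it and absence of dHIFα cannot be told apart for these genes.

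Those most like *tgo* were the cell adhesion gene *sdk* (0.94), the RNA-binding gene *qkr54B*, the planar polarity gene *Vang* and the kinase gene *slpr* (each 0.92), and the microtubule-severing gene *Kat60* (0.92). In *dERR* mutants in H they stood -0.57 to -0.97 from *w1118*, and in *w1118* they changed with H by -0.02 to 0.26. With H they changed by -0.42 to -0.16 in *sima* mutants and by -0.45 to -0.18 in the double-mutants. The low level in *dERR* mutants that they share with *tgo* is a pattern that likeness to *tgo* itself selects for.

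Genes next to the members on the chromosome were looked up with up to 3 on each side and any that overlap. None of the 7 measured around *Hph* was called in *w1118* with H-treatment (changes from -1.21 to 1.65), nor any of the 7 around *Vhl* (-0.99 to 0.28). With 5.15% of all probe sets called in *w1118*, 0 of 7 is near that share. *Tim17a2*, which overlaps *Hph*, changed by 0.19 (adjusted p = 0.239), and *CG9062*, which overlaps *Vhl*, by 0.16 (adjusted p = 0.378). *CG1113*, beside *Hph*, changed by 1.65 in *w1118* (SE 0.49, adjusted p = 0.0269), 1.23 in *dERR* mutants, -0.51 in *sima* mutants and 0.04 in the double-mutants, none of them called. In H it was lower in the double-mutants than in *w1118* (-2.61, adjusted p = 9.79e-04).

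Around *sima*, 0 of 6 neighbours were called between *sima* mutants and *w1118* in N (-1.35 to 0.24). This is near the share of 1.47% over all probe sets. In H *CG15528* was lower in *sima* mutants (-1.39, adjusted p = 2.75e-04). The glycolytic gene *Tpi*, which lies on the other side, was lower in *dERR* mutants in N (-1.74, adjusted p = 0.00421) and in H (-2.34, adjusted p = 4.64e-05). Beside *tgo*, *Nmdmc* was lower in *dERR* mutants in H (-2.94, adjusted p = 2.64e-04), the comparison in which *tgo* was called. *Kcmf1* rose with H in *w1118* (0.64, adjusted p = 4.87e-04), while *CG11986*, which overlaps *tgo*, changed by -0.17 (adjusted p = 0.361).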

How the data were processed

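Whole-larva RNA was profiled on Affymetrix Drosophila Genome 2.0 arrays. Normalization by the authors used RMA, and each deposited intensity is on a linear scale. Which RMA software and version was used is not given in the sources consulted, nor whether 1 run covered all 26 arrays. The log2 of each value was taken. The 183 control probe sets were left out, which left 18769. Of all 18952 probe sets, the platform annotation assigns 13647 to a single gene, 402 to several genes and 4903 to none that could be used, and older names were updated through a RefSeq table of the fly genome, used only for names and neighbours.

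One model with 8 groups was fitted to the 26 arrays with limma 3.58.1 in R 4.3.3, without a replicate block. Its number of arrays limits the precision. The labels do not say whether replicate numbers pair the samples, and they were not treated as pairs. Same-numbered arrays of different groups had correlations of deviations from -0.53 to 0.52 (mean 0.02), of which 30 of 84 were over 0.1. Other-numbered arrays had correlations from -0.67 to 0.71 (mean -0.01), of which 75 of 210 were over 0.1. In a list, the probe set with the highest mean stood for its gene. Members and lists were chosen with earlier results of these data known. Named are the members, *ERR*, list genes called in a comparison given, and the 5 genes most like each member. Other genes named, such as neighbours, were picked after their values were seen. Alternatives were median centring, a filter on dim probe sets, the replicate block, only the arrays compared, array weights, SAM, handling of the close *w1118* pairs, and each array left out. The limma fit was tested on simulated data. No sequences are shown, because none of the tables used holds them.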

Additional observations from a re-analysis of the deposited data

Results flagged for a closer look

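The hypoxic change of *Hph* and *Vhl* differed between genotypes by a test of the difference itself, with limma over all probe sets. Against *w1118*, it was smaller in *sima* mutants by -2.43 on *Hph* CG31543 (adjusted p = 1.53e-05), -2.10 on *Hph* CR31541 (adjusted p = 6.10e-06) and -1.14 for *Vhl* (adjusted p = 0.00557). In the double-mutants it was smaller by -2.79 (adjusted p = 4.41e-06), -1.80 (adjusted p = 2.48e-05) and -1.18 (adjusted p = 0.00298). Against *dERR* mutants, the change in the double-mutants was smaller by -2.12 on *Hph* CG31543 (adjusted p = 1.02e-04) and -1.46 on *Hph* CR31541 (adjusted p = 3.19e-04). The comparisons with *w1118* share its 8 arrays. In *w1118* in H, the group of 5, no single array of a member stood apart by a gap test. For *sima*, replicate 4 was the highest there at 8.36, with the others at 7.62 to 7.94. Groups of 3 were not tested for gaps.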

How the results depend on the processing

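Of 3280 alternative values for 95 results (5 probe sets in 19 comparisons), 3226 stayed on the same side of the threshold, 11 newly passed it and 43 no longer did. Many of these come from leaving out 1 array of a group not compared, which cannot move the difference itself. Among the 31 called results, 0 changed sign. With only the arrays of the groups compared, 10 calls were lost. The *dERR* change of *Hph* missed the threshold (2.26 on CG31543 and 1.75 on CR31541), as did the *Vhl* interactions of *sima* mutants (-1.14, adjusted p = 0.0325) and double-mutants (-1.18, adjusted p = 0.0118). The others were *tgo* and both *Hph* probe sets in *dERR* mutants against *w1118* in H, *sima* in N and *Vhl* in H between double and *dERR* mutants, and the *Hph* CR31541 change between those mutants. The *dERR* change of *Vhl* (0.75) passed with only brighter probe sets (adjusted p = 0.00752) and with only replicates 1 to 3 of *w1118* in H (adjusted p = 0.00855). Leaving out 1 array moved it between 0.64 and 0.85, and moved the *Vhl* interactions between -1.25 and -1.04 in *sima* mutants and between -1.29 and -1.10 in double-mutants.

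With the replicate block, 2 calls in *dERR* mutants against *w1118* in H moved: *tgo* was lost (-0.56, adjusted p = 0.0296) and *Vhl* was gained (-0.62, adjusted p = 0.00806). Replicates 4 and 5 occur only in *w1118* in H, so the block fits them exactly and sets them aside. Both values therefore equal those with only replicates 1 to 3 of that group. Averaging the close *w1118* pairs lost *tgo* (-0.58) and *Hph* CG31543 (-0.79) in *dERR* mutants against *w1118* in H. Counts over all probe sets moved more than those of the members. The 73 called in *dERR* mutants with H ran from 0 with only the arrays compared to 183 without replicate 1 of *dERR* in H, the 966 in *w1118* from 531 to 1352, the 886 in double-mutants from 213 to 1516, and the 675 in *sima* mutants from 412 to 1060. Array weights gave the highest count for *w1118*, *sima* and double-mutants. The 59 and 90 of the *sima* and double interactions ran from 32 to 209 and from 44 to 393. Against *w1118*, the 275, 429 and 168 called in N in *sima*, *dERR* and double-mutants ran from 145 to 2256, 68 to 996 and 81 to 1522, the 856, 1157 and 1136 called in H from 264 to 1300, 200 to 1821 and 222 to 1650, and the 20 of the *dERR* interaction from 2 to 81. Between double and *sima* mutants, 190 in N, 195 in H and 3 for the change ran from 75 to 883, 51 to 257 and 0 to 11. Between double and *dERR* mutants, 46, 365 and 149 ran from 1 to 324, 74 to 407 and 17 to 270. The cause of these shifts was not tested. With 3 arrays in most groups, differences near 1.5-fold could fall on either side.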
